A study of Pyrus pyrifolia with 6 samples.

Results

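The genes described here are 5 GDSL esterase/lipase genes of sand pear (Pyrus pyrifolia) fruit skin that lie outside type IIc, the subgroup of the family named IIc in the study's own typing. Their identifiers in the deposited table are ‘103929852’ (similar to At5g22810 of Arabidopsis, type Id), ‘103944138’ (similar to At5g45950, placed in type Ic by the study's list), ‘103929236’ (EXL3-like isoform X3, type Ia), and ‘103930687’ and ‘103930686’ (both GDSL esterase/lipase 1-like, type IIIa). Each is written below as LOC followed by its identifier. The genes were selected with their measured difference between russet and green skin already known, so every value of that difference below is a description. Where one of them stood relative to the threshold used for all genes is stated for reference only and supports nothing. They are 5 of the 28 GDSL genes that the study listed and 5 of the 42966 genes of the deposited table. Of the other 23 listed genes, 16 also lie outside type IIc and 7 belong to it.

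Russet fruit skin came from the cultivar ‘Niitaka’ and green fruit skin from ‘Suisho’, a bud mutant line of ‘Niitaka’. Both were sampled at 80 days after anthesis from healthy, untreated trees grown in the open, and skin of 10 fruits went into each sample. Each group had 3 RNA-Seq libraries. Those of russet skin carry the codes A1, A2 and A3, and those of green skin the codes B1, B2 and B3. All fruit of the green group belongs to 1 mutant line, so the skin phenotype and anything else particular to that line cannot be told apart. Values are FPKM, which are fragment counts scaled to gene length and library size, and so can be compared between genes. Between 31381552 and 42729578 fragments stood behind the values of a library.

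GDSL lipases are a large plant family of esterases and lipases named after a short motif near the N-terminus that holds the catalytic serine. Many carry a signal peptide and act outside the cell. In tomato, the GDSL enzyme CD1 links cutin monomers into the polymer of the fruit cuticle, and other family members take part in making or breaking suberin, the polyester of corky cell walls. In Arabidopsis, GDSL LIPASE 1 is a secreted protein of pathogen defence, and the EXL proteins are extracellular lipases best known from the pollen coat. Green pear skin is covered by a cuticle, whereas in russet skin a suberized periderm has replaced it.

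The tissue difference was visible in genes picked from those the study itself named. The 5 omega-hydroxypalmitate O-feruloyl transferase-like genes, which serve suberin, summed to 81.6–147.5 FPKM in russet libraries, against 7.89–8.37 FPKM in green ones. The 6 cuticle genes (CYP86A22 and ECERIFERUM 1-like genes) summed to 1.01–2.11 FPKM in russet libraries, against 104.3–143.4 FPKM in green ones, and 4 of the 6 were at 0 in all russet libraries. All 5 suberin genes were called higher and all 6 cuticle genes lower in russet skin. These lists hold only part of the genes that the study named on these samples, and are not independent evidence of a direction. The study also reported wax ester genes and some fatty acid elongation genes as higher in russet skin. In bulk skin, fewer cells of a type and less RNA per cell cannot be told apart.

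Of the 5 GDSL genes, 1 was much higher in russet skin, 1 was almost confined to green skin, 1 was abundant in both skins but lower in russet skin, and the 2 GDSL esterase/lipase 1-like genes were slightly higher (LOC103930687) and, with widely spread green libraries, lower on average (LOC103930686) in russet skin. At an adjusted p under 0.05 (limma on log2(FPKM + 0.1), Benjamini-Hochberg over 30161 genes), 3 of the 5 lay under the threshold (LOC103929852 as higher, LOC103944138 and LOC103929236 as lower in russet skin). Of all tested genes 15.3% passed, 8.05% as higher and 7.29% as lower in russet skin. The libraries of the groups did not overlap for 4 of the 5 genes, against 33.1% of all tested genes. Since the genes were selected on this contrast, these counts are no test of them and nothing is read from them.

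**Figure D1:**
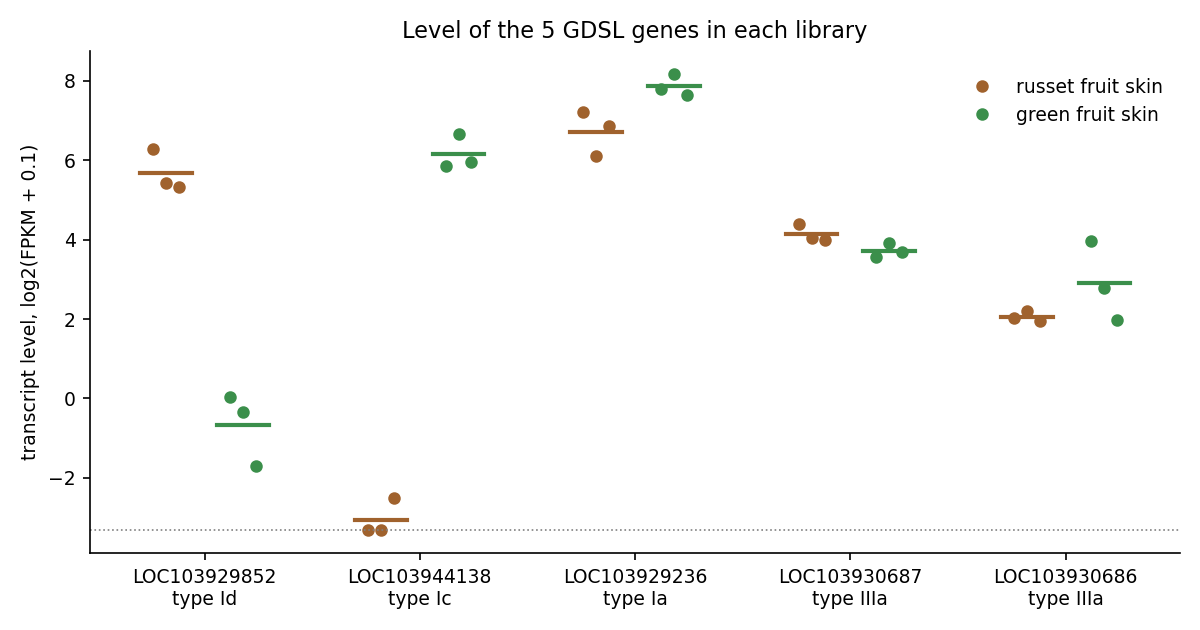
Transcript level of the 5 GDSL genes, as log2(FPKM + 0.1), in the 3 russet (left of each pair) and 3 green (right) libraries; points are libraries, short lines are group means of the log2 values and the dotted line marks 0 FPKM. LOC103929852 and LOC103944138 are far apart between the skins in opposite directions, and the libraries overlap only for LOC103930686.

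LOC103929852, the gene similar to At5g22810, had 77.2, 42.8 and 40.1 FPKM in russet libraries A1, A2 and A3, against 0.917, 0.685 and 0.208 FPKM in green libraries B1, B2 and B3. All 3 russet libraries lay far above all 3 green ones, with A1 the highest and B3 the lowest. Russet libraries averaged 53.3 ± 20.7 FPKM and green libraries 0.603 ± 0.361 FPKM (SD, n = 3 each), a difference of 6.35 ± 0.47 (SE) on the log2 scale. The green values rest on few fragments, 41 in B1, 26 in B2 and 7 in B3. The exact 95% Poisson interval of the B3 value ran from 0.0836 to 0.428 FPKM, below the B1 value, and these intervals cover counting error only. Over the pooled fragments, 6570 in russet and 74 in green libraries, the level in russet skin was 81.2 times that in green skin (exact counting interval 64.6–103.6). This interval also leaves out the spread between libraries.

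Among the 28 listed genes, LOC103929852 ranked 6 by mean level in russet skin and 27 in green skin. It was higher than 94.3% of all genes in the table in russet skin and than 41.6% in green skin. The other 2 type Id genes, both described as APG-like after a family of proline-rich proteins of Brassica and Arabidopsis anthers, went the other way. LOC103934976 had 1.78, 0.706 and 1.82 FPKM in russet libraries, against 68.0, 85.7 and 63.9 FPKM in green libraries. LOC103936382 had 0.0869, 0.293 and 0.247 FPKM in russet libraries, against 40.2, 50.8 and 36.4 FPKM in green libraries. Both passed the test as lower in russet skin, by −5.66 and −7.16 on the log2 scale, so the 3 genes of the type did not share a direction.

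LOC103929852 is the first gene on its scaffold, NW_008988494.1 (61–3345, minus strand, gene length 1073 bp). Its length is the shortest of the 28 listed genes, and whether the gene is complete at the scaffold end was not tested. No gene overlaps it, and the next gene, LOC103929871, starts after a gap of 1460 bp on the same strand. That neighbour had 3.93, 2.68 and 2.36 FPKM in russet libraries, against 0.0127, 0.0150 and 0 FPKM in green libraries, from 655 and 2 fragments. It passed the test as higher in russet skin, with a fitted difference of 4.79 ± 0.31 (SE) that depends on the pseudocount because the green libraries were near 0. The second gene along, LOC103929853, was named after its values were seen. It had 0.871, 0.607 and 0.463 FPKM in russet libraries, against 0.126, 0.0464 and 0.136 FPKM in green libraries, and also passed as higher. The 3 genes after it, LOC103929854, Novel00524 and LOC103929855, did not pass. Their differences were −0.03, −1.06 and −0.38 on the log2 scale.

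LOC103944138, the gene similar to At5g45950, had 0, 0 and 0.0752 FPKM in russet libraries A1, A2 and A3, against 57.9, 100.6 and 62.4 FPKM in green libraries B1, B2 and B3. No fragment was assigned to it in A1 or A2 and only 4 in A3, whereas green libraries held 3068, 4525 and 2488. The groups were separated completely. A count of 0 allows up to 0.0696 FPKM in A1 and 0.0552 FPKM in A2, taking 3 fragments as the floor. Russet libraries averaged 0.0251 ± 0.0434 FPKM and green libraries 73.6 ± 23.5 FPKM (SD, n = 3 each).

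Over pooled fragments, 4 in russet and 10081 in green libraries, the level in green skin was 2754 times that in russet skin, and the exact counting interval ran from 1075 to 10110. This interval covers counting error only and leaves out the spread between libraries. The fitted difference of −9.21 ± 0.32 (SE) on the log2 scale is bounded by the pseudocount, and it was −6.14 with a pseudocount of 1 and −11.77 with 0.01. Of all tested genes, 99.99% had a smaller difference in absolute size. The gene ranked 27 of the 28 listed GDSL genes in russet skin and 5 in green skin. Green skin held it above 96.2% of all genes in the table.

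The other 2 genes of type Ic were also lower in russet skin. Both are described after At2g04570, which in Arabidopsis is OSP1, a lipase of the guard cell outer cuticular ledge and leaf wax. LOC103955005 had 0.153, 0.122 and 0.461 FPKM in russet libraries, against 44.6, 54.0 and 30.4 FPKM in green libraries. LOC103955006 had 2.36, 1.53 and 2.78 FPKM in russet libraries, against 13.0, 15.1 and 10.7 FPKM in green libraries. Both passed the test, with differences of −7.05 and −2.52 on the log2 scale. LOC103944138 was thus the type Ic gene with the highest mean level in green skin and the lowest in russet skin.

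LOC103944138 lies on scaffold NW_008988063.1 (762608–764519, plus strand, gene length 1271 bp), and no gene overlaps it. The gene before it, LOC108867027, was at 0 in all 6 libraries. The gene after it, LOC103944140, follows 356 bp downstream on the other strand. LOC103944140 had 32.8, 25.6 and 16.9 FPKM in russet libraries, against 20.9, 17.2 and 16.4 FPKM in green libraries, so the groups overlapped and its difference of 0.42 ± 0.24 (SE) did not pass. Of the 10 genes nearest to LOC103944138, 7 could be tested and 1, LOC103944137, passed as higher in russet skin, by 0.48 on the log2 scale.

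LOC103929236, the EXL3-like gene, was the most abundant of the 28 listed GDSL genes in every library. It had 147.9, 68.4 and 116.0 FPKM in russet libraries A1, A2 and A3, against 219.8, 290.1 and 201.1 FPKM in green libraries B1, B2 and B3. The highest russet library stayed below the lowest green one. Russet libraries averaged 110.8 ± 40.0 FPKM and green libraries 237.0 ± 46.9 FPKM (SD, n = 3 each), with a difference of −1.15 ± 0.30 (SE) on the log2 scale. Between 3688 and 6331 fragments per russet library and between 7966 and 12954 per green library stood behind these values, so counting error is small beside the spread between libraries.

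With 1 library left out, the difference of LOC103929236 ranged between −1.39 without A1 and −0.84 without A2, the lowest russet library. Its place under the threshold was near the edge, with an adjusted p of 0.041 in the limma fit of all 6 libraries. That place was kept without A1 and lost without A2, A3, B1, B2 or B3, so it was not stable to leaving out a library. LOC103929236 is the only type Ia gene in the study's list, so no other gene of the type could be set beside it there.

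The study's tables describe 2 further EXL3-like genes next to LOC103929236 on scaffold NW_008988050.1 (338748–345374, minus strand, gene length 1275 bp). Both lie on its strand and outside the list of 28. The first of them, LOC103927538, comes 12656 bp after it and had no fragment in the russet libraries, against 0.149, 0.175 and 0.0247 FPKM from 17 fragments in green libraries. Its mean was too low for the test. The second, LOC103927529, comes after a gap of 19223 bp and had 0.356, 0.159 and 0.126 FPKM in russet libraries, against 6.28, 12.05 and 17.94 FPKM in green libraries. It passed the test as lower in russet skin, by −5.23 ± 0.45 (SE) on the log2 scale. All 3 EXL3-like genes of this stretch were lower in each russet library than in each green one, LOC103927538 in B3 by only 1 fragment. Of all tested genes, 33.1% had groups that did not overlap. The sources used here do not say how fragments shared by such similar neighbours were assigned. On the other side, the nearest gene, LOC103929230, held 1 fragment in russet and 5 in green libraries, and no gene overlaps LOC103929236. Of the 10 genes nearest to LOC103929236, 7 could be tested and 2 passed, LOC103927529 and, as higher in russet skin, LOC103929209. LOC103929209 lies 8117 bp before LOC103929236 and was named after its values were seen. It had 0.683, 0.793 and 0.738 FPKM in russet libraries, against 0.145, 0.256 and 0.257 FPKM in green libraries. Its difference was 1.41 ± 0.30 (SE) on the log2 scale.

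**Figure D2:**
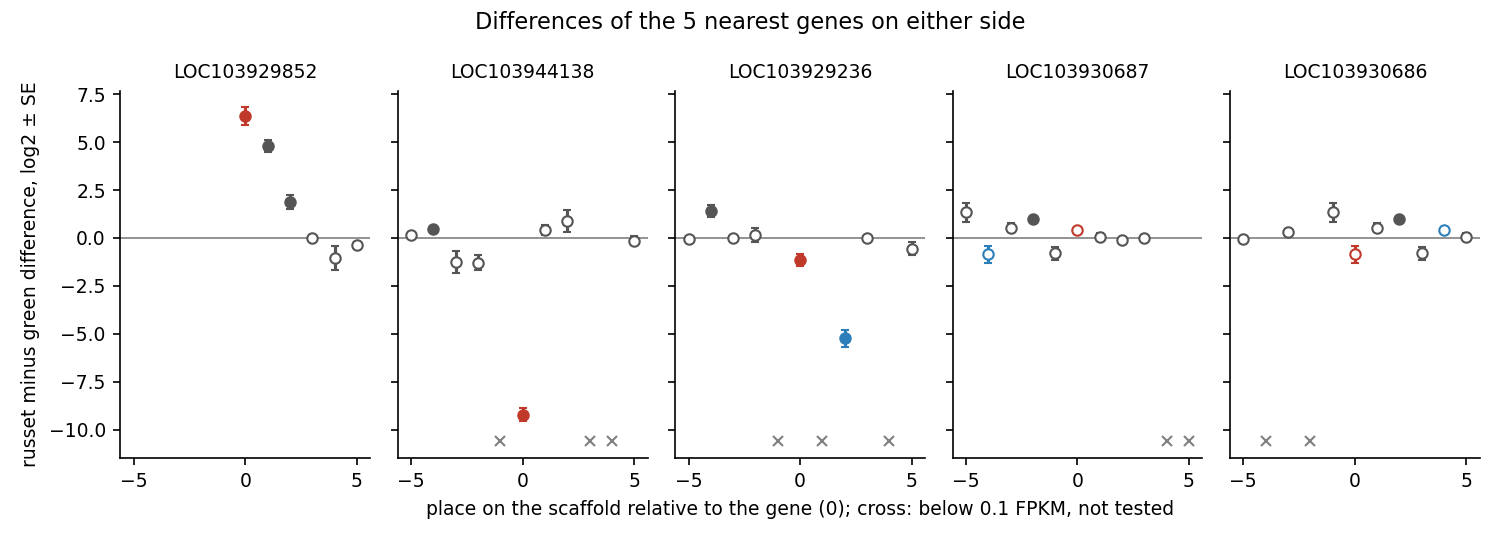
Russet minus green difference (log2 ± SE) of each of the 5 genes (red, place 0) and of up to 5 genes on either side of it on the scaffold; blue marks other GDSL genes, open circles an adjusted p of 0.05 or more, and crosses genes below 0.1 FPKM on average. The 2 genes after LOC103929852 are higher in russet skin (4.79 and 1.88), and the EXL3-like gene at place 2 beside LOC103929236 is lower (−5.23).

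LOC103930687, 1 of the 2 GDSL esterase/lipase 1-like genes, had 20.8, 16.2 and 15.7 FPKM in russet libraries A1, A2 and A3, against 11.7, 15.0 and 12.7 FPKM in green libraries B1, B2 and B3. The groups did not overlap, but A3 and B2 were only 0.729 FPKM apart. Russet libraries averaged 17.6 ± 2.8 FPKM and green libraries 13.1 ± 1.7 FPKM (SD, n = 3 each). The difference was 0.42 ± 0.16 (SE) on the log2 scale. The gene had the smallest spread between libraries of the 5 genes on the log2 scale in green skin, and 35.6% of tested genes had a smaller residual spread.

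LOC103930686, the other GDSL esterase/lipase 1-like gene, had 3.97, 4.52 and 3.74 FPKM in russet libraries A1, A2 and A3, against 15.5, 6.76 and 3.86 FPKM in green libraries B1, B2 and B3. The russet libraries lay close together while the green ones spread widely, and the groups overlapped because B3 fell among the russet values. Russet libraries averaged 4.08 ± 0.40 FPKM and green libraries 8.69 ± 6.04 FPKM (SD, n = 3 each). The difference was −0.85 ± 0.45 (SE) on the log2 scale, −0.32 without B1 and −1.31 without B3. The 814 fragments in B1 against 302 in B2 and 153 in B3 leave counting error far below this spread.

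Both genes of type IIIa lie on scaffold NW_008988520.1 on the plus strand, LOC103930686 at 153892–155894 (gene length 1343 bp) and LOC103930687 at 233397–235271 (gene length 1310 bp). A gap of 77502 bp with 3 other genes separates them. In russet libraries A1, A2 and A3 the FPKM of LOC103930687 was 5.23, 3.59 and 4.19 times that of LOC103930686, against 0.754, 2.22 and 3.28 times in green libraries B1, B2 and B3. The ratio was higher in each russet library than in each green one, and only in B1 was LOC103930686 the more abundant of the pair. No other gene of type IIIa is in the list.

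No gene overlapped either gene of the pair. LOC103930686 is followed by LOC103930685 after 96 bp on the other strand, with 6.72, 9.63 and 6.92 FPKM in russet libraries, against 6.40, 4.09 and 5.46 FPKM in green libraries. Its difference of 0.54 ± 0.22 (SE) did not pass, nor did that of LOC103930698, the gene before LOC103930686, except without A2 (1.82). LOC103930687 stands between LOC103930682, at 0.0863–0.109 FPKM in russet and 0.159–0.305 FPKM in green libraries, and LOC103930688, at 11.9–15.8 FPKM in russet and 10.1–16.7 FPKM in green libraries. Neither passed. Of the 3 genes between the pair, LOC103930683 passed as higher in russet skin and was named after its values were seen. It had 5.72, 5.92 and 6.28 FPKM in russet libraries, against 2.97, 2.66 and 3.27 FPKM in green libraries, a difference of 0.99 ± 0.16 (SE).

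Across the 5 genes, the order of mean levels in russet skin was LOC103929236, LOC103929852, LOC103930687, LOC103930686 and LOC103944138. The ranges of the first 2 overlapped (68.4–147.9 and 40.1–77.2 FPKM), and those of the other neighbours in the order did not. In green skin the order was LOC103929236, LOC103944138, LOC103930687, LOC103930686 and LOC103929852. There the ranges of the GDSL esterase/lipase 1-like pair overlapped (11.7–15.0 and 3.86–15.5 FPKM), and those of the other neighbours did not. LOC103929852 and LOC103944138 changed places between the skins, and the other 3 genes kept their order.

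The 28 GDSL genes together summed to 819, 499 and 697 FPKM in russet libraries A1, A2 and A3, against 1097, 1408 and 1108 FPKM in green libraries B1, B2 and B3. This sum covers the list and not the whole family. It leaves out 6 more genes that the study's tables describe as GDSL. The 5 genes made up 30.5, 26.4 and 25.2% of that sum in russet libraries, against 27.9, 29.3 and 25.3% in green libraries, so their joint share covered much the same range in both skins. Its makeup differed. LOC103929852 held 7.91 ± 1.92% of the GDSL sum in russet skin and 0.0503 ± 0.0324% in green skin. LOC103944138 held 0.00359 ± 0.00622% in russet skin and 6.02 ± 0.99% in green skin (SD, n = 3 each). LOC103929236 ranged over 13.71–18.05% in russet libraries and 18.15–20.60% in green libraries.

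**Figure D3:**
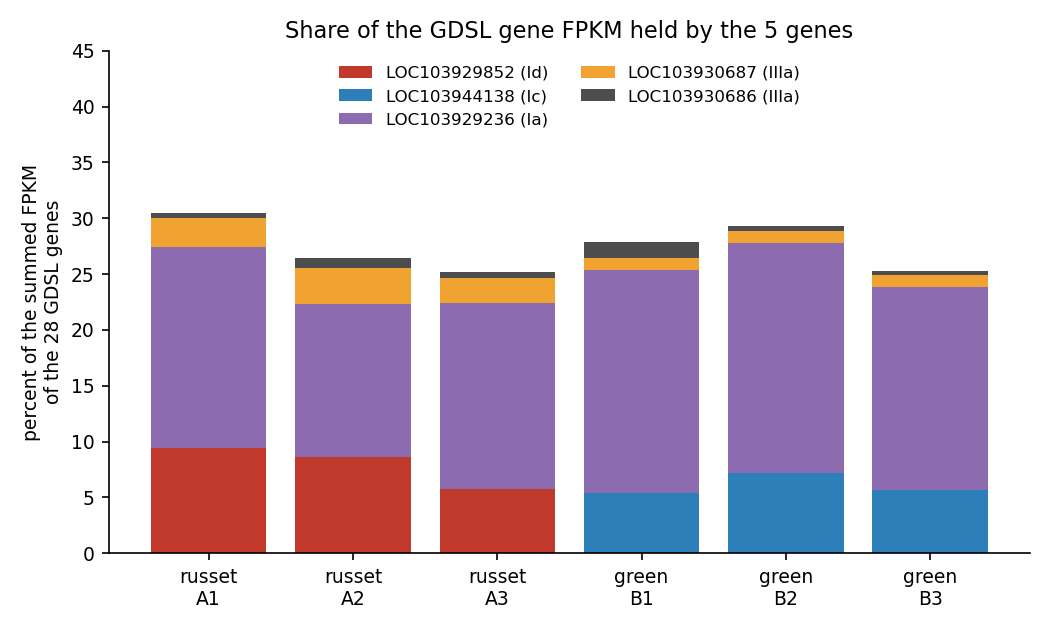
Percent of the summed FPKM of the 28 listed GDSL genes held by each of the 5 genes in the 3 russet and 3 green libraries. The total height is 25.2–30.5% in russet and 25.3–29.3% in green libraries, with LOC103929852 at the base of the russet bars and LOC103944138 at the base of the green bars.

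All 28 listed genes could be tested. Of the other 23, 16 passed, 6 higher and 10 lower in russet skin, with a median difference of −0.48 on the log2 scale, against 0.00 for all tested genes. Among all tested genes 15.3% passed, 8.05% as higher and 7.29% as lower in russet skin. With 1 library left out, between 13 (without B2) and 15 (without A3) of the 23 passed. The study assembled this list on these samples and reported its expression as varied between the skins, so it is not independent evidence of a direction. By type, the 2 genes of IIb and the 1 of IVc were lower in russet skin, and 3 of the 7 of type IIc were higher and 2 lower. Of the 5 of type IVb, 2 were higher and 1 lower, 1 of the 2 of type Va was higher, and neither gene of type IVa passed. With the library number as a block, LOC103956398 of type IVa (−1.25) and LOC103949240 of type Va (−0.66) also passed as lower. Outside the types of the 5 genes and at the pseudocount of 0.1, the largest increase was that of LOC103956819, similar to At5g37690 and of type IIc, at 4.97 ± 0.27 (SE), and the largest decrease that of LOC103940363, LTL1-like and of type IIb, at −5.59 ± 0.23 (SE). Which genes were these depended on the setting. With a pseudocount of 0.01 and with voom the largest decrease was that of LOC108867532 of type IIc (−6.58 and −6.68), and with a pseudocount of 1 and without B2 the largest increase was that of LOC103958709 of type IIc (4.41 and 5.15).

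**Figure D4:**
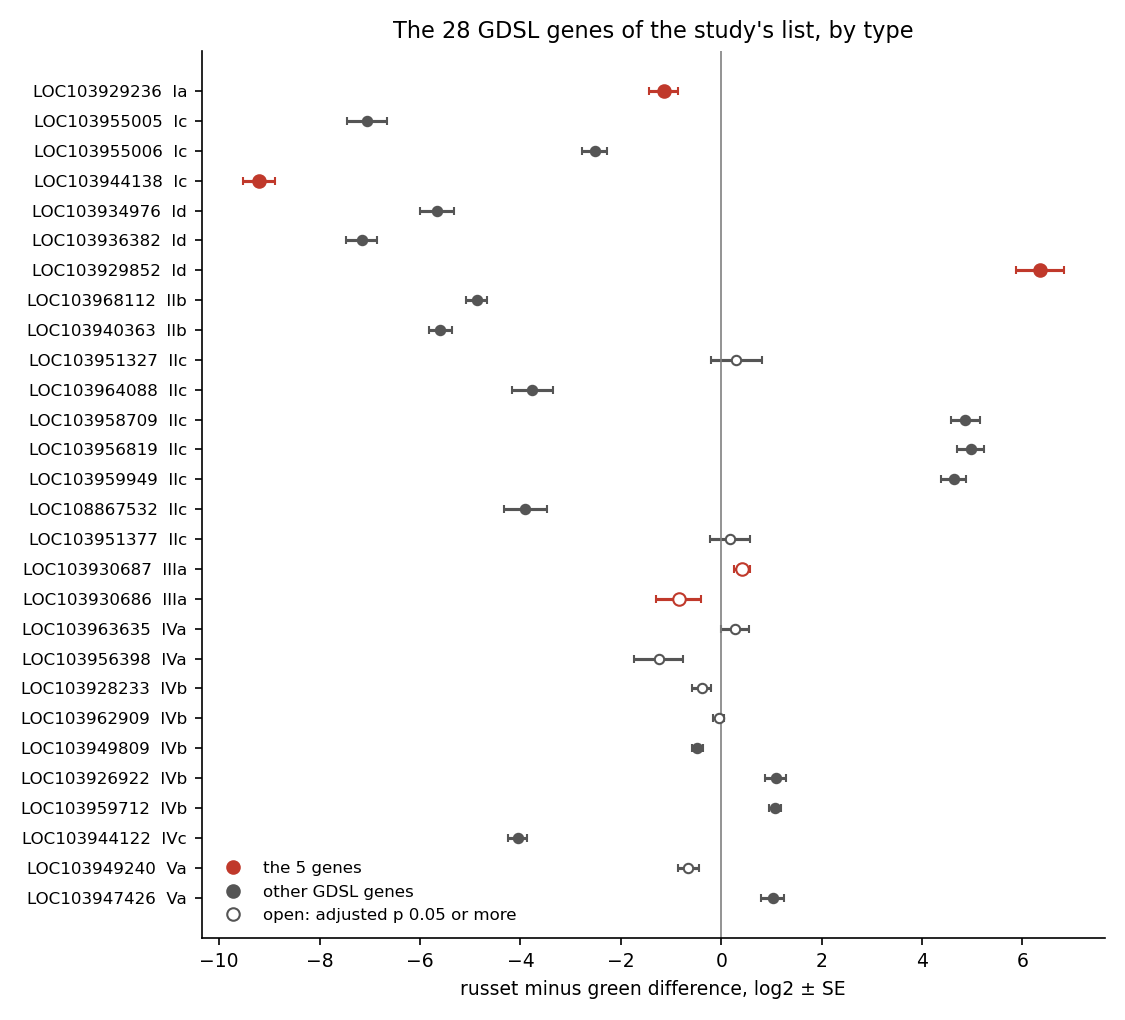
Russet minus green difference (log2 ± SE) of the 28 GDSL genes of the study's list, ordered by type; red marks the 5 genes and open circles an adjusted p of 0.05 or more. LOC103929852 (6.35) and LOC103944138 (−9.21) are the extremes of the list, and the other 2 genes of type Id (−5.66 and −7.16) lie opposite LOC103929852.

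To find the genes with the most similar pattern, log2(FPKM + 0.1) profiles centred on their mean were compared over the 6 libraries by their root mean square difference. The 6 points of a profile share libraries and fall into 2 groups. Where the skins differ strongly, a small value therefore mainly reflects a like difference between them. For LOC103930687 and LOC103930686, whose differences did not pass, the spread between libraries counts as well. For LOC103929852 the nearest tested genes were LOC103957865 (0.23) and LOC108865422 (0.30). LOC108865422 is described as beta-amyrin synthase-like, an enzyme type of triterpene synthesis, and had 101.5, 64.1 and 50.5 FPKM in russet libraries, against 1.54, 1.75 and 0.423 FPKM in green libraries. Of the GDSL genes, LOC103958709 of type IIc was nearest at 0.92, a larger distance than either.

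For LOC103944138 the nearest genes were LOC108865655 (0.31) and LOC103927050 (0.41). LOC103927050, described as a glycine-rich cell wall structural protein, had 0.0287, 0.0228 and 0.0465 FPKM in russet libraries, against 55.5, 61.1 and 40.4 FPKM in green libraries. The nearest GDSL gene was the APG-like LOC103936382 of type Id, at 1.09.

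For LOC103929236 the nearest genes were LOC103931073 (0.12) and LOC103936025 (0.14), and LOC103949240, similar to At4g10955, was the nearest GDSL gene (0.40). LOC103936025 and LOC103949240 did not pass the test without the library number as a block and passed with it (−1.10 and −0.66 on the log2 scale in both fits). For LOC103930687 they were LOC103962810 (0.06, at only 15–30 fragments per library) and LOC103937507 (0.08), with LOC103962909 nearest among GDSL genes (0.30). For LOC103930686 they were LOC108865544 (0.14) and LOC103928221 (0.19), which is described as an AP-3 complex subunit mu-like protein, with LOC103928233 nearest among GDSL genes (0.62). LOC108865544 and LOC103928221 also had B1 as their highest library, at 2.27 and 3.69 FPKM, which follows from their selection by pattern. LOC108865544 rests on only 12–73 fragments per library.

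**Figure D5:**
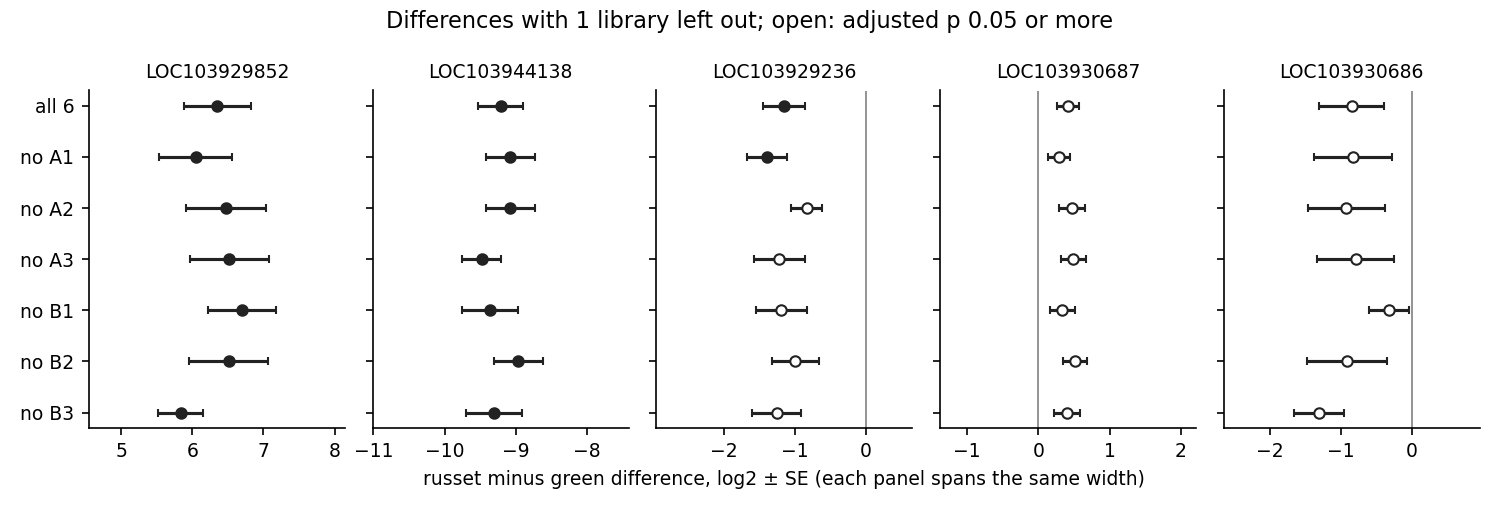
Russet minus green difference (log2 ± SE) of the 5 genes with all 6 libraries (top) and without 1 of them at a time; filled circles have an adjusted p under 0.05, shown for reference only, and each panel spans the same width. LOC103929236 ranges between −1.39 and −0.84, and LOC103930686 moves to −0.32 without B1.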

How the data were processed

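The authors trimmed paired-end reads, aligned them to the Pyrus × bretschneideri genome with HISAT2 2.0.4, assembled transcripts with Cufflinks 2.1.1 and deposited 1 FPKM value per gene and library. The assembly version, read counter and handling of reads shared by similar genes are not given in the sources used here. Columns name a group but not a sample. Gene positions, lengths and scaffolds are the deposited ones, and descriptions and types come from the study's supplementary tables. FPKM were multiples of whole fragments (tolerance 0.0001) for 74.5% of values with the deposited length, and 8439 genes needed another length.

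The genes and lists were chosen with earlier results of these data known. The 30161 genes whose 6 libraries averaged 0.1 FPKM or more entered 1 limma fit (limma 3.58.1 in R 4.3.3, eBayes trended) of log2(FPKM + 0.1). The test was two-sided, with Benjamini-Hochberg adjustment. Differences are russet minus green on this scale, which understates the change of low genes. The script was tested on simulated data. Named genes were the 5, other listed genes of their types and the extremes of the rest, nearest genes on the scaffold, and for each gene the 2 tested genes and 1 GDSL gene nearest in pattern. The fit reported treated the libraries as unpaired. A paired alternative took the column number as a block. Deviations from the group mean correlated at 0.20, 0.21 and 0.32 for equal numbers and at −0.24 to 0.04 otherwise. The deviations of a group cancel over its libraries, so positive values for equal numbers bring mostly negative ones elsewhere by construction. Pairing by column number is only a hint from the data. The labels number russet samples 1–3 and green samples 2–4, tie no column to a sample and do not say what a number shares. Alternatives were 10 settings with all libraries and each of the 6 libraries left out. No sequences were used here.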

Additional observations from a re-analysis of the deposited data

How the results depend on the processing

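The count of genes passing, 4625 of 30161 in the fit reported, was 3574–6038 under the 10 alternatives with all libraries and 3162–3600 with 1 library left out. The 5 GDSL genes were selected on this contrast, so their place relative to the threshold is a description and no sign of stability. Of them, 3 lay under it, and 2–3 under these alternatives. LOC103929236 (−1.15) left it without a filter on low values (−1.15) and without a trend in limma (−1.15), and its difference was −1.39 to −0.84 with 1 library left out. Over all alternatives, the difference was 5.05 to 6.70 for LOC103929852, −11.77 to −6.14 for LOC103944138, 0.29 to 0.52 for LOC103930687 and −1.31 to −0.32 for LOC103930686. With the library number as a replicate block, 6038 genes passed and the same 3 of the 5 GDSL genes lay under the threshold. Of 41 other named or listed genes checked in this way, 3 changed their call with the block, all to passing (LOC103956398, LOC103949240 and LOC103936025). Of their 650 alternatives, 19 lost a call, in 4 genes, 7 gained one and 0 reversed. Of the 28 listed genes, 19 passed, against 15–17 with 1 library left out and 21 with the block. Depth limits the low values: LOC103944138 in russet skin and LOC103929852 in green skin rest on 4 and 74 fragments.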
